A study of Mus musculus with 12 samples.

Results

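The regions described here carried a call of trimethylated histone H3 lysine 4 (H3K4me3) in mouse embryonic intestinal epithelium at the stage E14.5 (days of embryonic development) and in no other cell population of the series. The mark had been profiled by ChIP-seq (sequencing of DNA pulled down with an antibody) in 4 groups with 2 libraries each. Each of the 8 libraries came with its own list of peaks, the stretches of the genome enriched over an input library. Peaks of the 8 lists were merged into regions wherever they overlapped or touched, on the autosomes only. A region was taken as E14.5-only when it held a peak in both E14.5 lists and none in the other 6. This rule chose 1239 of 23602 merged regions (5.25%), or 8.12% of the 15265 regions called in both E14.5 libraries. The regions were chosen by these calls, which rest on the caller's q values, so their calls, ranks, heights and widths are given as a description, without a test. Positions are those of the mouse build mm9, and regions are named by position alone.

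The 4 groups came from small intestine of mice of a mixed C57BL/6 and CD1 background. Embryonic epithelium was sorted at E12.5 and at E14.5 as live EpCAM-positive cells without the endothelial marker CD31 and the leukocyte marker CD45. The adult groups came from males of 2 months (P60) carrying Lgr5EGFP-Cre-ERT. Adult intestinal stem cells (ISC) were the cells with high Lgr5-EGFP, and enterocytes were EpCAM-positive cells sorted by the same 2 negative markers. About 250000 cells entered each immunoprecipitation. The labels give neither the sex of the embryos nor how many were pooled. The labelled cell types were not checked against marker genes, since no gene annotation of mm9 was used here.

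H3K4me3 is laid down by the SET1 and MLL methyltransferase complexes around transcription start sites, above all at CpG-rich promoters, and is bound by parts of the general transcription machinery. Active genes usually carry tall, wide stretches of the mark. Promoters held in a poised state, weakly used start sites and some enhancers usually carry lower ones. Between the stages compared, the gut epithelium changes from a thickened, proliferating tube towards the first villi, and the mark is used to follow which promoters become available on the way. The study asked how the mark changes as adult stem cells are specified and as they differentiate.

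Depth differed between the libraries. It ran from 12821255 tags (enterocyte replicate 1) to 43259380 tags (E14.5 replicate 1), with 22718162 tags in E14.5 replicate 2. The 2 E14.5 lists held 16225 and 17658 peaks, and the other 6 lists 11111 to 17007. Absence from a list means that the caller reported no peak at that depth; it does not show that the mark was absent. The part of depth in the choice of regions was not tested. The 4 replicate 2 libraries had similar depths, from 22137910 to 25547814 tags. Taken by themselves, they gave 2444 regions called in E14.5 replicate 2 alone, against 3216 in enterocyte replicate 2, 975 in E12.5 replicate 2 and 926 in ISC replicate 2. As shares of the regions each library called, these were 14.4%, 19.6%, 7.47% and 6.18%, in the same order. The libraries also differed in enrichment. Among replicate 2 libraries, the median fold enrichment over input of the whole list was 9.66 at E14.5, 5.08 at E12.5, 6.59 in ISC and 6.59 in enterocytes. For replicate 1 it was 7.78, 4.54, 5.63 and 5.06, in the same order. The part of enrichment in these counts was not tested.

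With the full lists, more regions were private to E14.5 than to any other group. By the same rule, 3 regions were private to E12.5 (0.0127% of all merged regions), 106 to ISC (0.449%) and 364 to enterocytes (1.54%). As a share of the regions that both libraries of a group called, this was 0.0292% at E12.5, 0.875% in ISC and 3.33% in enterocytes, against 8.12% at E14.5. The E14.5 count was 2396 when E14.5 replicate 1 was left out, 1477 without E14.5 replicate 2 and 1695 without E12.5 replicate 2. When every list was held to its 11111 strongest peaks, the length of the shortest list, E14.5-only regions numbered 78, those of E12.5 127, those of ISC 83 and those of enterocytes 474. The order of the groups was thus another one in lists of equal number. This setting kept E14.5 peaks down to a −log10 q of 13.7 and 13.3 in the 2 libraries, E12.5 peaks down to 1.01 and 2.99, ISC peaks down to 3.11 and 6.84 and enterocyte peaks down to 2.03 and 7.64. Of the 1239 regions, 3 had both of their E14.5 peaks among those kept.

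The E14.5-only regions lay at the weak end of both E14.5 lists. Each list was ranked by the −log10 q of its peaks, the caller's measure of confidence over input, and a rank percentile near 0 marks the strongest peak and 100 the weakest. The median rank percentile of E14.5-only regions was 89.7 in replicate 1 and 83.4 in replicate 2. The best-ranked peak of any of them stood at 62.4 in replicate 1 and at 57.9 in replicate 2, so that every E14.5-only region fell in the weaker part of both lists. In replicate 1, 1178 of the 1239 (95.1%) lay past the percentile of 75, and in replicate 2, 1027 (82.9%). Regions called in all 8 libraries (8651) had medians of 27.3 and 25.3. The 5375 regions that the E14.5 pair shared with 1 to 5 of the other 6 libraries lay between, at 72.3 and 66.2. Ranking by fold enrichment or by pileup in place of −log10 q moved the median of E14.5-only regions, averaged over both lists, from 86.6 to 86.4 and 86.8.

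**Figure D1:**
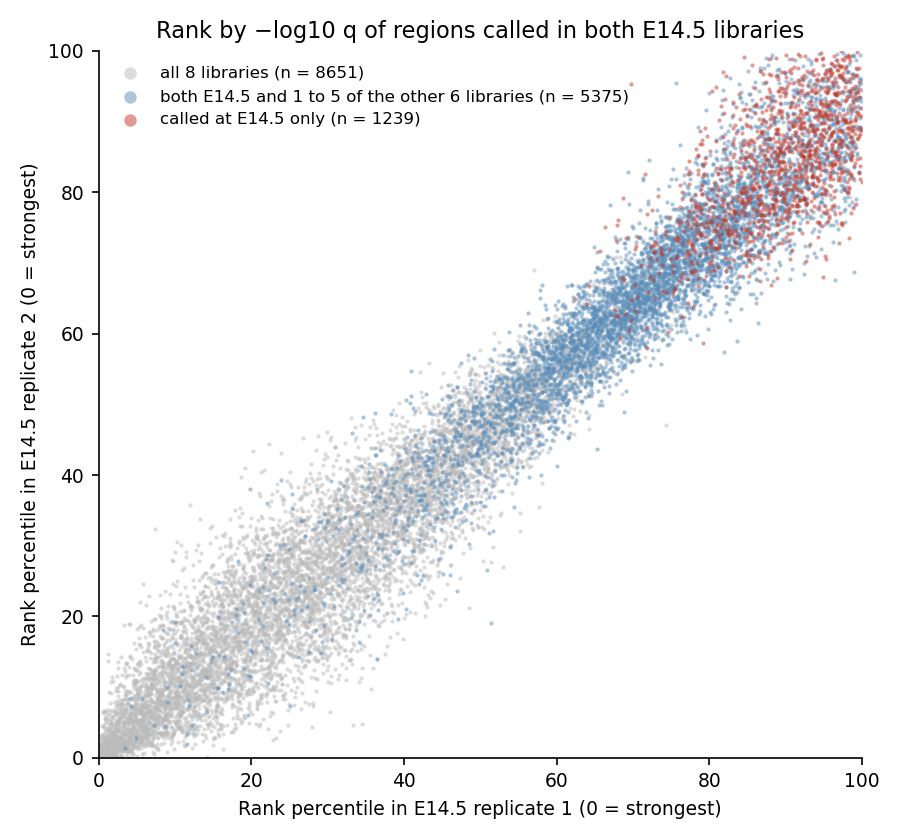
Rank percentile of each region called in both E14.5 libraries, with replicate 1 on the horizontal axis and replicate 2 on the vertical axis (0 is the strongest peak of a list, 100 the weakest). The 1239 E14.5-only regions (red) fill the upper right corner from 62.4 and 57.9 upwards, beyond most of the 8651 regions called in all 8 libraries (grey).

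In absolute terms these were shallow peaks. The authors' fold enrichment over input had a median of 3.15 at E14.5-only regions in replicate 1 and 3.82 in replicate 2, where the medians of the whole lists were 7.78 and 9.66. The mean coverage by fragments (pileup) had medians of 18.6 and 11.6, with 51.2 and 32.7 over the whole lists. The median −log10 q was 3.53 in replicate 1 and 3.63 in replicate 2, while regions called in all 8 libraries had 50.8 and 46.7. A −log10 q of at least 10 was reached by 54 E14.5-only regions in replicate 1, 35 in replicate 2 and 20 in both. At the other end, 198 in replicate 1 and 155 in replicate 2 had a −log10 q under 2. The lowest values inside the rule were 1.09 and 1.12, close to the lowest of the lists themselves (1.03 and 1.01). The q cutoff of 0.01 in the file headers corresponds to a −log10 q of 2, so the lists reach below it, and the headers name no other cutoff for broad peaks.

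The strongest E14.5-only regions still ranked in the weaker part of each list. By the sum of both rank percentiles, the first was chr14:66587471-66588110, with a −log10 q of 19.0 and a fold enrichment of 5.91 in replicate 1, and 11.9 and 6.27 in replicate 2. Its rank percentiles were 62.4 and 64.9. The second, chr11:30371736-30372357, had −log10 q values of 13.8 and 16.5 and fold enrichments of 5.81 and 8.35. For the third, chr17:69824818-69825237, −log10 q was 17.6 and 12.4. These 3 regions were 420 to 640 bp wide, within the quartiles of the E14.5-only set (386 and 712 bp). In each case the nearest region outside the E14.5-only set had been called by 1 library.

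Others near the top were longer. The region chr11:42233337-42234874 was covered over 1324 bp in replicate 1 and 1538 bp in replicate 2, with fold enrichments of 6.92 and 6.76, and lay 1004277 bp from the nearest region called in all 8 libraries. The region chr4:84191060-84192369 had the highest rank that any E14.5-only region reached in replicate 2 (57.9), but its coverage differed between the replicates, 795 bp against 1269 bp. The region chr15:41582978-41584088 was nearly the same in both, 1075 and 1073 bp. The 4 further regions among the 10 best were chr2:35866713-35867338, chr8:49307220-49307915, chr4:147415162-147416248 and chr10:49508056-49508825. Their fold enrichments ran from 4.63 to 5.50 in replicate 1 and from 6.81 to 7.52 in replicate 2. Among the 10, chr2:35866713-35867338, chr4:147415162-147416248 and chr15:41582978-41584088 lay nearest to a region called in all 8 libraries, at 31024, 1207 and 35574 bp. The nearest region was called by 1 library for chr8:49307220-49307915 and by 3 to 5 for chr4:84191060-84192369, chr11:42233337-42234874 and chr10:49508056-49508825.

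The region with the median rank sum, chr17:75864772-75864983, was typical in rank but among the narrowest. It was covered over 194 bp in replicate 1 and 200 bp in replicate 2, where the medians over all E14.5-only regions were 403 and 446 bp. Its fold enrichments were 3.45 and 3.88, and its rank percentiles 88.9 and 85.0. The weakest by rank sum, chr10:78209899-78210296, singled out after its values were seen, had −log10 q values of 1.33 and 1.19 and stood at percentiles of 99.3 and 99.8.

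Among the regions called in both E14.5 libraries, the share private to E14.5 rose steeply towards the weak end. Sorted by the mean of the 2 rank percentiles, 25 of 1553 regions between percentiles 60 and 70 were E14.5-only (1.61%). The share was 14.8% between 70 and 80, 38.7% between 80 and 90, and 52.6% in the weakest regions beyond 90 (409 of 778). Over the same steps, the share of regions called in all 8 libraries went from 14.2% to 1.39%, 0.203% and 0.386%. Beyond the percentile of 70, regions called in all 8 libraries were thus rare among the E14.5 calls.

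At like positions in their own lists, enterocytes also gave high shares, near those of E14.5, and ISC and E12.5 gave lower ones. Among the regions beyond the percentile of 90, 50.9% were private to enterocytes (27 of 53), 12.0% to ISC (29 of 241) and 0.676% to E12.5 (1 of 148). The E14.5 share there was 52.6%. Between 80 and 90, the shares were 31.8% in enterocytes, 6.11% in ISC and 0.143% at E12.5, against 38.7% at E14.5. Enterocyte-only regions also reached far up their lists, with a best rank percentile of 14.2 in replicate 1 and 29.8 in replicate 2, and a median of 69.5 in replicate 2. The best of the 106 ISC-only regions stood at 68.6 and 45.0. These are positions within lists of different lengths and depths, set side by side without a test.

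**Figure D2:**
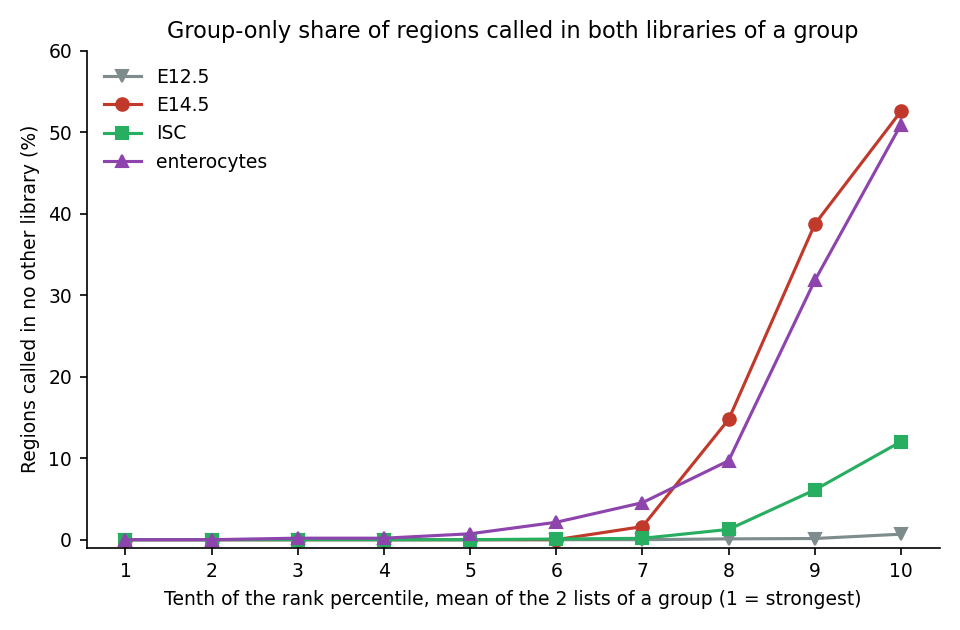
Share of the regions called in both libraries of a group that no library of another group called (vertical axis, %), in steps of 10 of the mean rank percentile in the group's own 2 lists (1 is the strongest step). E14.5 (red) leaves the baseline at step 7 with 1.61% and reaches 52.6% at step 10. Enterocytes (purple) reach 50.9% and ISC (green) 12.0% at step 10, while E12.5 (grey) stays at or under 0.676% throughout.

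E14.5-only regions were narrow. Their merged width had a median of 517 bp, with quartiles of 386 and 712 bp, and the longest was 2200 bp. Within the libraries, the median covered length was 403 bp in replicate 1 and 446 bp in replicate 2. Regions called in all 8 libraries had a median width of 2004 bp, and those called in E14.5 and some other libraries 1089 bp. Only 98 E14.5-only regions (7.91%) exceeded 1000 bp and 3 exceeded 2000 bp. In total they spanned 725452 bp, against 19423825 bp for the regions called in all 8. A merged region is the union of all its peaks, so regions with more libraries have more chances to be extended.

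Width and privacy went together across the regions called in both E14.5 libraries. Of the 951 regions up to 500 bp wide, 578 (60.8%) were E14.5-only, and of the 2822 between 500 and 1000 bp, 563 (20.0%). The share was 2.51% between 1000 and 1500 bp and 0.423% between 1500 and 2000 bp. Of the 1747 regions over 3000 bp wide, the number private to E14.5 was 0. For comparison, regions private to enterocytes had a median width of 1056 bp and 81 of 364 (22.3%) exceeded 2000 bp. Those private to ISC had 528 bp, close to the E14.5-only median, and 6 of 106 (5.66%) exceeded 2000 bp. Regions called in both libraries of both embryonic stages and in no adult library (339) had a median of 1173 bp.

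**Figure D3:**
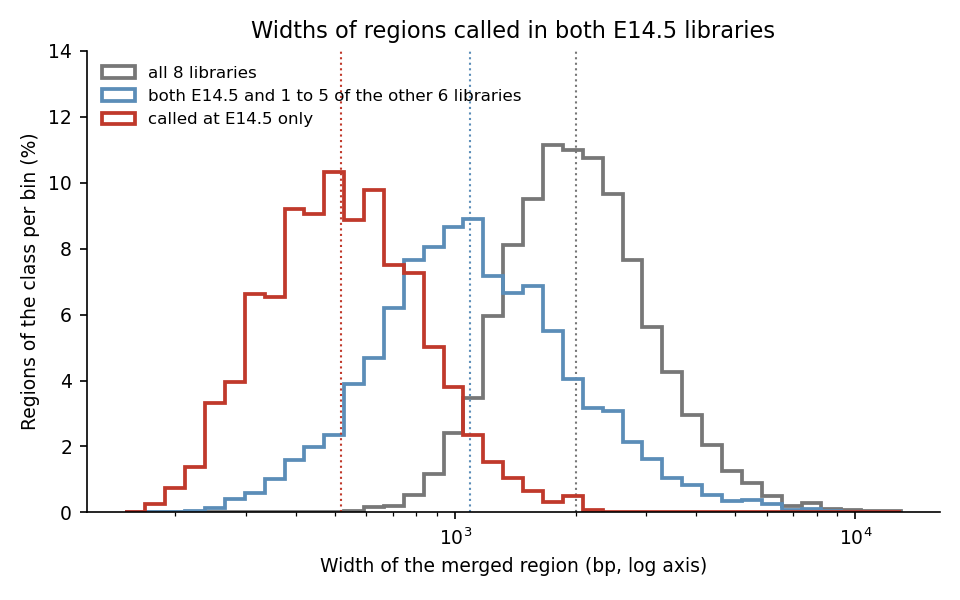
Widths of merged regions called in both E14.5 libraries (horizontal axis in bp, logarithmic), as the share of each class per bin (vertical axis, %), with dotted lines at the class medians. E14.5-only regions (red) centre on 517 bp, regions shared with 1 to 5 other libraries (blue) on 1089 bp, and regions called in all 8 (grey) on 2004 bp.

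The E14.5-only regions were also narrow beside other E14.5 calls of like rank. Among regions of mean rank percentile 80 to 90, the 571 E14.5-only regions had a median width of 506 bp and the 901 shared with 1 to 5 other libraries 806 bp. Beyond 90, the medians were 474 bp (409 regions) and 746.5 bp (366 regions), and between 70 and 80 they were 632 bp and 940.5 bp. The E14.5-only regions had the smaller median in each of these ranges, where the union of more peaks again widens the shared regions. No test was made of these differences.

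The widest E14.5-only regions combined length with low height. The region chr13:38436990-38439017 was covered over 2028 bp in replicate 1 and 1979 bp in replicate 2, with fold enrichments of 3.57 and 4.06. The region chr6:16804222-16806098 was covered over 1807 and 1851 bp and was the strongest of the widest, with −log10 q values of 12.1 and 6.83. Both replicates thus drew nearly the same outline of these 2 regions, sharing 97.6% and 94.9% of the bp that either covered. The region chr5:139828504-139830417 (1736 and 1914 bp) stood at rank percentiles of 94.5 and 83.5. For chr6:126592964-126595043 the covered length was 1721 and 2080 bp, and for chr2:113597262-113599169 it was 1528 and 1879 bp.

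The 2 E14.5 libraries outlined the E14.5-only regions less alike than they did other regions. The bp covered in both libraries made up a median of 70.4% of the bp covered in either at E14.5-only regions, 84.6% at regions shared with some other libraries and 91.8% at regions called in all 8. It was under 50% at 239 E14.5-only regions (19.3%), and 1046 remained when the overlap had to reach 50% of the covered bp in each library. An equal shift of edges lowers this bp share more in narrow regions, and the classes had median widths of 517, 1089 and 2004 bp. The part of width in this share was not tested. The Spearman correlation of the 2 rank percentiles across regions was 0.60 over the 1239 E14.5-only regions, 0.94 over the 5375 and 0.93 over the 8651. It is a description across regions of the same 2 libraries, and E14.5-only regions span a shorter range of ranks. Nearly all were single peaks: 1239 in replicate 1 and 1237 in replicate 2. Replicate 2, which had the fewer tags, covered more bp at 737 of them (59.5%), at 62.5% of the 5375 and at 56.6% of the 8651.

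Just outside the rule lay regions missed by 1 list or called by 1 list too many. Both E14.5 libraries and exactly 1 of the other 6 called 945 regions, whose median width was 734 bp and whose median rank percentiles were 83.3 and 76.5. The extra library was E12.5 replicate 2 in 455 of them (48.1%), ISC replicate 2 in 323 and enterocyte replicate 2 in 130. The shallower replicate 1 of those groups added 20, 16 and 1. In E12.5 replicate 2 the extra peak was itself weak, with a median rank percentile of 86.2 and 371 bp covered. On the other side, 1132 regions were called in E14.5 replicate 2 alone and 224 in E14.5 replicate 1 alone, with median widths of 235 and 248.5 bp and median −log10 q values of 1.97 and 1.88.

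Along the genome, E14.5-only regions followed the other E14.5 calls. Chromosome 2 held the most, 108, and chromosome 19 the fewest, 37. As a share of the regions called in both E14.5 libraries, they ranged from 6.24% on chromosome 15 (40 of 641) to 10.3% on chromosome 14 (58 of 563), around 8.12% for all autosomes. Per 10 Mb, up to the last region of each chromosome, the number ran from 3.30 on chromosome 12 to 6.82 on chromosome 11. Chromosome 11 also had the most regions called in all 8 libraries (739).

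At a limit of 100 kb, most E14.5-only regions stood alone. The gap to the next one on the chromosome had a median of 993647.5 bp. Another E14.5-only region lay within 100 kb of 285 of them (23.0%) and within 10 kb of 60 (4.84%), but within 500 kb of 670 (54.1%). The share with another of its class within 100 kb was 55.1% for the 5375 shared regions, 22.3% for the 364 enterocyte-only regions and 6.78% for the 339 embryonic-only ones, and it moves with how many regions a class holds. For E14.5-only regions the count within 100 kb was 831 without E14.5 replicate 1 and 455 without E12.5 replicate 2, where more regions met the rule. Linked by gaps of up to 100 kb, the 1239 regions formed 954 single regions, 107 pairs, 16 groups of 3 and 4 larger groups. Against the surrounding E14.5 calls, the nearest other region that the E14.5 pair shared was itself E14.5-only for 180 of the 1239, for 537 of the 5375 regions shared with some other libraries (9.99%) and for 477 of the 8651 called in all 8 (5.51%). E14.5-only regions made up 8.12% of all these regions. No test was made of this difference.

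The longest group held 8 E14.5-only regions over 268153 bp of chromosome 3, from 96137319 to 96405471. They were interspersed with 12 other regions, 5 of them called in all 8 libraries. Within the span, the E14.5 libraries had 15 peaks each, E12.5 6 and 7, ISC 6 and 7, and enterocytes 7 and 9. By the rule, the 8 E14.5-only regions hold E14.5 peaks alone, so part of this difference is set by the choice of regions. The first of the 8, chr3:96137319-96138347, was the widest at 1029 bp, with fold enrichments of 4.12 and 4.10. The shortest was chr3:96144567-96144893, covered over 313 and 254 bp. The region chr3:96239615-96240131 reached a −log10 q of 7.24 in replicate 2 against 3.65 in replicate 1. For chr3:96401598-96402447 the libraries differed most in length, 279 bp against 850 bp. The others, chr3:96231366-96232025, chr3:96278716-96279226, chr3:96330926-96331472 and chr3:96404806-96405471, had fold enrichments of 2.53 to 3.19 in replicate 1 and 3.05 to 4.35 in replicate 2.

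The second group was far denser, with 6 E14.5-only regions over 30767 bp of chromosome 13, from 21998914 to 22029680. The E14.5 libraries had 9 peaks each in this span and covered 8205 and 7401 bp. E12.5 had 2 peaks in each library (1977 and 2172 bp), ISC 2 in each (413 and 1860 bp), and enterocytes 1 and 2 (333 and 631 bp). By the rule, the 6 E14.5-only regions hold E14.5 peaks alone, so part of this difference is set by the choice of regions. The span held 3 other regions, 1 of them called in all 8 libraries. The best-ranked were 2 of the 6: chr13:22028846-22029680 had −log10 q values of 10.5 and 8.32, and chr13:22002697-22003269 had 8.85 and 8.30. The region chr13:21998914-21999814 had 7.15 and 4.61. The remaining 3, chr13:22019858-22020637, chr13:22025919-22026297 and chr13:22027479-22028185, had values between 2.94 and 4.85. All 6 lay within 9188 bp of a region called in all 8 libraries.

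The third group was 5 regions over 58791 bp of chromosome 18, from 37821517 to 37880307. The span held 5 other regions, 0 of them called in all 8 libraries. The E14.5 libraries had 9 peaks each, covering 3503 and 3699 bp. The number of peaks in replicate 1 of the other 3 groups was 0, and their replicate 2 had 4 at E12.5, 3 in ISC and 2 in enterocytes. By the rule, the 5 E14.5-only regions hold E14.5 peaks alone, so part of this difference is set by the choice of regions. The 5 regions were 244 to 511 bp wide. The strongest in replicate 1 was chr18:37821517-37821834, with a −log10 q of 5.07 there and 2.72 in replicate 2. In replicate 2 it was chr18:37839835-37840345, with 7.48 there and 3.88 in replicate 1. The other 3 were chr18:37828677-37828940, chr18:37844888-37845323 and chr18:37880064-37880307, with values of 1.88 to 3.44 in replicate 1 and 1.71 to 6.85 in replicate 2.

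**Figure D4:**
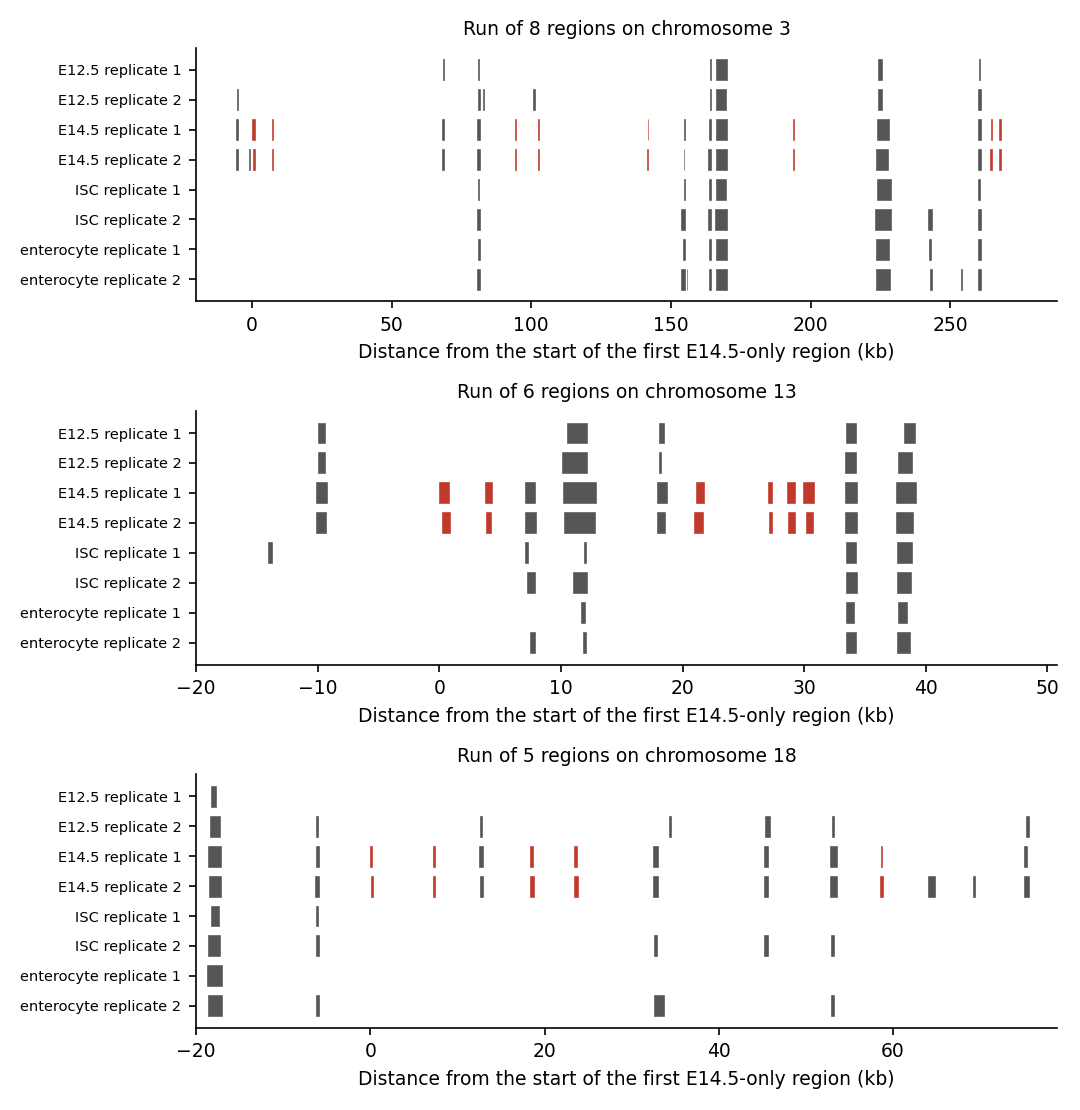
Peaks of each of the 8 libraries (rows) around the 3 largest groups of E14.5-only regions, by distance from the start of the first one (horizontal axis, kb); bars span the called peaks, red where they belong to an E14.5-only region and grey elsewhere. Red bars stand in the 2 E14.5 rows by the rule, between grey bars that several groups share, and the chromosome 13 group holds 6 of them within 30767 bp.

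E14.5-only regions lay at widely varying distances from the regions that every library called. The gap to the nearest region called in all 8 libraries had a median of 94136 bp. Within 100 kb of one lay 653 regions (52.7%), and within 5 kb 55 (4.44%). No comparison with random positions was made. Without E14.5 replicate 1, 2396 regions met the rule, and 159 of them (6.64%) lay within 5 kb of a region called in all remaining libraries. Regions shared by E14.5 and some other libraries had a median gap of 56451 bp and 5.80% within 5 kb. At a mean rank percentile beyond 90 the medians were 90802 bp for the 409 E14.5-only and 41735.5 bp for the 366 shared regions, in the same order. Regions private to enterocytes lay at a median of 33018.5 bp, with 14.6% within 5 kb, and those private to ISC at 50199 bp, with 10.4%. Regions called in both embryonic stages only lay farther away, at 188451 bp. At the far end, 50 E14.5-only regions were more than 1000 kb from any region called in all 8.

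**Figure D5:**
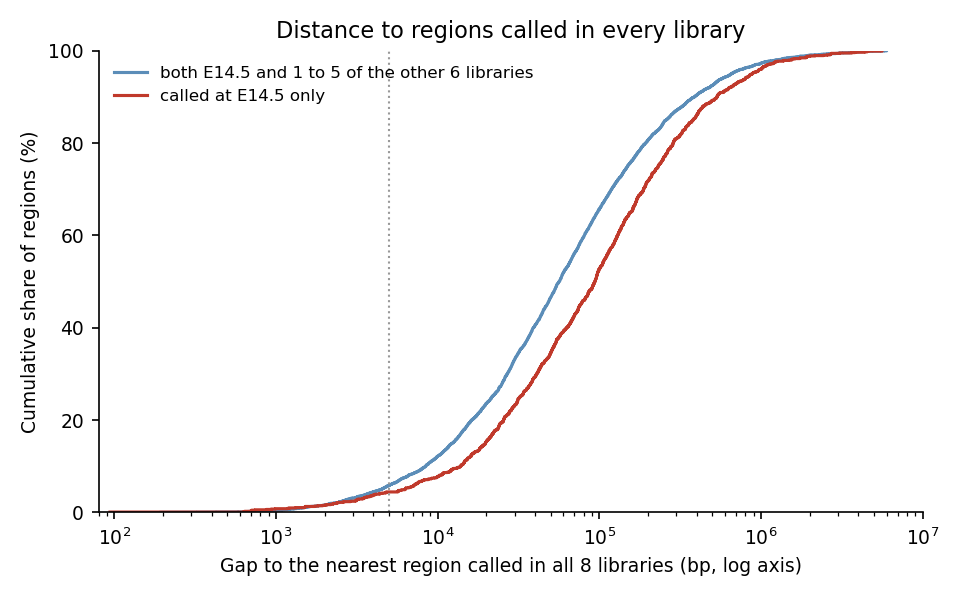
Cumulative share (vertical axis, %) of E14.5-only regions (red) and of regions called in both E14.5 libraries and 1 to 5 of the other 6 (blue) by the gap to the nearest region called in all 8 libraries (horizontal axis in bp, logarithmic; the dotted line marks 5 kb). The red curve runs to the right of the blue one beyond 5 kb, with medians of 94136 and 56451 bp.

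A few E14.5-only regions lay right beside regions called in all 8. The region chr10:115257974-115258238 stood 94 bp from one and was covered over 257 and 213 bp, with −log10 q values of 1.21 and 1.78. The region chr18:35715621-35716680 stood at 631 bp and chr5:74460730-74462222 at 640 bp. Both were longer in replicate 2 (1060 and 1493 bp) than in replicate 1 (422 and 692 bp). The farthest was chr1:114313119-114313461, 5618808 bp from a region called in all 8, covered over 277 and 343 bp with fold enrichments of 2.99 and 4.04. The next, chr14:4051928-4052421 and chr14:4121596-4122179, lay 4597919 and 4528161 bp away. The bp covered in both replicates made up 34.8% and 15.2% of their covered bp, so their outlines differed.

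For any given library, the E14.5 libraries included, at most 13.4% of E14.5-only regions had another region within 5 kb that it called. These counts by library were not made for other classes of region. Of the 1239 E14.5-only regions, 126 had a region called by E12.5 replicate 2 within 5 kb, 136 one called by ISC replicate 2 and 127 one called by enterocyte replicate 2. For the replicate 1 libraries of these groups the counts were 89, 98 and 71. For the E14.5 libraries, with E14.5-only regions themselves left out, they were 152 and 166. Within 50 kb, a region called by replicate 2 of E12.5, ISC or enterocytes was found for 618, 646 and 652. The nearest region of any kind outside the E14.5-only set lay at a median gap of 27939 bp. It was called by all 8 libraries for 326 E14.5-only regions (26.3%), where 38.7% of all other regions were, and by 1 library for 417 (33.7%), where 29.3% of all other regions were. Of those 417, the library was enterocyte replicate 2 for 149 (35.7%, against 42.3% of all single-library regions) and E14.5 replicate 2 for 102 (24.5%, against 17.2%).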

How the data were processed

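H3K4me3 libraries (2 per group, 8 in all) were used; the 4 input libraries entered only as controls of the deposited calls. Per the file headers, the authors ran MACS 2.0.10.20130712 for each library on its own, in broad mode at a stated q cutoff of 0.01 (the lists reach a −log10 q of 1.01 to 1.09), with 1 input shared by both libraries of a group. Among the tools and builds in the submitters' processing notes are bcl2fastq 1.8.4, SAMtools 1.2, Bowtie 1.1.2 and the build mm9. The deposited lists give, for every peak, its length in bp, a pileup (mean coverage signal), a −log10 p and a −log10 q against input, and a fold enrichment (ratio); these are the authors' values for single peaks and rank or describe peaks within their own list. The series' design text calls the 2 libraries of a group biological duplicates. The replicate 2 setting in the closing section was chosen after seeing the data.

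Peaks on autosomes were merged with Python 3.11.15 and pandas 2.3.3 where they overlapped by at least 1 bp or touched. Rank percentile is 100 times the rank by −log10 q over the list's length; the best peak stands for a region. Gaps run edge to edge. The merging, the choice of regions and the distances were checked on simulated data. Named are the 10 best-ranked regions, the 5 widest by the smaller covered length, all regions of the 3 largest groups linked by gaps up to 100 kb, the 3 nearest to and 3 farthest from a region called in all 8, and the one of median rank sum. The rule and these lists were chosen with earlier results of these data known. No test was made. No gene names or sequences are given, since no genome or annotation of mm9 was used here.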

Additional observations from a re-analysis of the deposited data

How the results depend on the processing

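The reported values are 1239 E14.5-only regions, a median width of 517 bp, a median rank percentile of 86.6 (mean of both lists), 285 regions with another within 100 kb, a median gap of 94136 bp to a region called in all 8 (95% binomial interval of the median, over regions, 84927 to 100446 bp) and 55 within 5 kb of one. Merge gaps of 500 and 1000 bp, a reciprocal overlap of 50%, all chromosomes and the ranking by fold or pileup kept each value they were run for within 1.5 times for counts, 1 SD between the 2 E14.5 libraries for width and rank, and this interval for the gap. The interval counts regions as if independent. It serves only as a yardstick for settings and does not measure the spread between libraries. In lists of equal number the values were 78, 954 bp, 93.3, 2, 117083 bp and 3, and 3 of the 1239 regions overlapped one of the 78. With a −log10 q of at least 10, 1268 regions were chosen, of which 20 overlapped the 1239. Their width was 1092.5 bp, the gap 610677 bp, and 5 lay within 5 kb. The same cutoff chose 117 enterocyte-only, 1 ISC-only and 0 E12.5-only regions. It left 11982 and 11955 peaks in the E14.5 lists, against 1441 to 10497 in the other 6 lists. With at least 500 bp in each E14.5 library, there were 331 regions of 815 bp, 26 with another within 100 kb and 18 within 5 kb. A merge gap of 5000 bp gave 185 with another within 100 kb, a gap of 103395 bp and, by construction, 0 within 5 kb. Windows of 50 and 500 kb gave 183 and 670, and windows of 2 and 10 kb 19 and 96. The replicate 2 libraries alone, a setting chosen after seeing the data, gave 2444 regions of 343 bp, 851, 60515.5 bp and 215. With each library left out in turn, the 6 values ranged from 1241 to 2396, 340.5 to 595 bp, 83.9 to 91.1, 285 to 831, 79141 to 100534 bp and 56 to 159. Stricter lists, longer minimums and fewer libraries change which regions can meet the rule by construction; beyond that the cause was not tested. No paired analysis was possible because no result comes from a test. Without read counts over the regions, marks below a list's cutoff could not be seen.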

Other observations

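Beyond the 3 largest groups, a further group of 4 E14.5-only regions lay on chromosome 13 from 23362020 to 23410215. It was picked out after its values were seen. Its span of 48196 bp held 8 regions called in both E14.5 libraries, 723 to 1011 bp wide for the 4 E14.5-only ones. E12.5 replicate 1 had 1 peak there and E12.5 replicate 2 had 4, while the 4 adult libraries had 0. By the rule, the 4 E14.5-only regions themselves hold no peak of these libraries.

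In some of the 16 groups of 3, the span held 0 regions outside the group, so the other 6 libraries had 0 peaks there by the rule. These groups too were picked out after their values were seen. They lay on chromosome 14 from 66572250 to 66628216, on chromosome 9 from 83558109 to 83621248, on chromosome 8 from 32026431 to 32142928 and on chromosome 6 from 126592964 to 126742391. The chromosome 14 group holds the E14.5-only region that comes first by the sum of both ranks, chr14:66587471-66588110, and the chromosome 6 group holds one of the widest, chr6:126592964-126595043. With the sex chromosomes included, 50 more regions met the rule.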
